A study of Arabidopsis thaliana with 12 samples.

Results

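Peroxiredoxins, sulfiredoxin and the NADPH-dependent thioredoxin reductase of the chloroplast form a thiol-based system that removes peroxides. A peroxiredoxin reduces a peroxide with a cysteine, and the oxidized cysteine is then restored by thioredoxins, glutaredoxins or related proteins. Sulfiredoxin repairs peroxiredoxins whose cysteine has been oxidized too far, and NTRC passes electrons from NADPH to peroxiredoxins and to other chloroplast targets. In leaves these proteins are known for limiting peroxide that forms when photosynthetic electron transport is out of balance.

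Transcripts of 3 genes of this system are described here: PRXIIE (AT3G52960), a type II peroxiredoxin of the plastid, SRX (AT1G31170), the sulfiredoxin, and NTRC (AT2G41680), which carries a thioredoxin reductase domain and a thioredoxin domain in 1 protein. They were chosen by locus, as probes that the platform annotation pairs with exactly 1 gene, and each locus had 1 such probe. These are 3 of 692 probes with 1 gene (691 genes) and of 3439 probes on the array. None of the 870 probes paired with several genes also named one of them. The choice set no limit on level or difference, but it was made with earlier results of these data known. The values below therefore describe these genes, and zeros per array are given with no test. RefSeq (TAIR10.1) lists all of the loci as protein-coding. Positions are not printed, since the sources used here name no build for the array.

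The arrays compared Arabidopsis thaliana wild type (WT) with the psao mutant, in which the photosystem I subunit PSI-O is missing. Total RNA of ecotype Columbia 0 was used for both, on 6 arrays of each genotype numbered 1 to 6. The labels give no allele, tissue, age or growth condition. Nothing in them states that the arrays hold RNA of different plants, so p-values reflect only variation among arrays, which may be technical. None of the 13 loci listed as markers of green leaf, root or seed had a probe with 1 gene, so the tissue was not checked here, and no such probe was paired with PSAO. In RNA from whole samples, fewer cells of a type and less RNA per cell cannot be told apart.

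Deposited intensities are relative values, set by the submitters so that the brightest probe of every array stands at 100. WT arrays 1 and 2 stood apart from the others, with 14.5% and 15.1% of probes at exactly 0 against 4.22% to 7.33% elsewhere. Their median intensities were 0.0995 and 0.0970, whereas the other arrays had medians from 0.180 to 0.273. The mean of the array medians was 1.52 times as high in psao as in WT. Within a genotype, the residuals of neighbouring array numbers (1 with 2, 3 with 4, 5 with 6) had an estimated correlation of 0.701, and such neighbours are called a couple. Couples were seen in the data and are not in the labels. Differences between the genotypes are given with all arrays and with arrays 3 to 6 alone.

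Of these genes SRX fell in psao, while neither PRXIIE nor NTRC passed the test. With arrays quantile normalized, which gives all of them the same distribution, SRX was 6.44-fold lower in psao over the arrays with a signal above 0. PRXIIE was 1.86-fold higher and NTRC 1.12-fold higher in psao, neither past the adjusted threshold. These tests came from limma, fitted on all 3187 probes with at least 4 values above 0 in each genotype, with Benjamini-Hochberg adjustment over all of them and a threshold of 0.05. In that fit 29.8% of probes passed, 14.8% higher and 15% lower in psao. A call on 1 of 3 genes is therefore close to the background share. That fit took the arrays of a genotype as independent. With couples as a random block, 330 of 3187 probes passed. SRX was still among them (-2.93, limma adjusted p = 0.0109), and PRXIIE (adjusted p = 0.262) and NTRC (adjusted p = 0.720) were not. The SE with that block was 0.53 for SRX, 0.48 for PRXIIE and 0.24 for NTRC, each larger than without it.

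SRX encodes the enzyme that uses ATP to reduce overoxidized peroxiredoxins. Its deposited intensity in WT arrays 1 to 6 was 0, 0.0815, 0.0747, 0.0695, 0.0752 and 0.0437. In psao arrays 1 to 6 it was 0, 0.0106, 0, 0.0133, 0.0300 and 0.0221. Every psao array above 0 was thus dimmer than every WT array above 0, and the groups overlapped only through the zero of WT array 1. That array and WT array 2, which held the highest WT value, belong to the same couple. With zeros kept, all psao arrays were dimmer than all WT arrays for 4.13% of all probes, which do not include SRX.

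The zeros of SRX fell on 1 of 6 WT arrays and 2 of 6 psao arrays. With the zeros kept, its mean deposited intensity was 0.0575 ± 0.0311 (SD, n = 6) for WT and 0.0127 ± 0.0119 (SD, n = 6) for psao, a ratio of 4.54. Relative to the median probe of the same array, SRX ranged from 0 to 0.840 times in WT and from 0 to 0.122 times in psao. Among all probes of an array it ranked between percentiles 7.26 and 46.1 in WT, with a median of 24.2. In psao it ranked between percentiles 3.01 and 8.74, with a median of 7.73. A probe at 0 takes the middle rank of all probes at 0 on its array, which gave the lowest percentile in both genotypes. Where above 0, the psao signal lay just above the probes at exactly 0, which made up 4.22% to 7.33% of psao arrays. On psao arrays 1 and 3 SRX was among those probes. A background level was not analysed here.

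**Figure D1:**
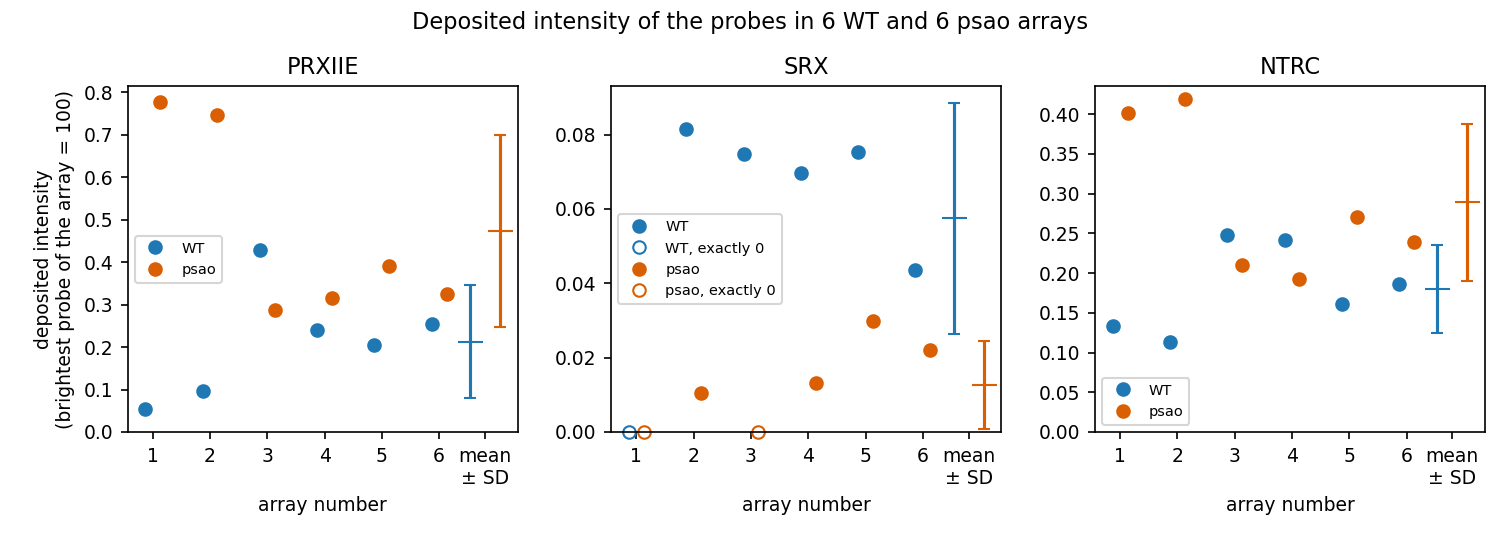
Deposited intensity (y axis, brightest probe of each array at 100) of PRXIIE, SRX and NTRC against array number (x axis) for 6 WT and 6 psao arrays, with the mean ± SD of each genotype at the right and exact zeros as open circles. All SRX values of psao lie at or under 0.0300, under each of the 5 WT values above 0, while the groups overlap for PRXIIE and NTRC.

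In the normalized values SRX had a WT level of -3.65 ± 0.58 log2 units (SD, n = 5) and a psao level of -6.33 ± 0.81 (SD, n = 4), with zeros left out. The change was -2.69 ± 0.43 log2 units (SE), with a limma adjusted p of 0.00180. Its 95% interval ran from -3.65 to -1.73. Of the 628 probes with 1 gene that were tested, 5 had a lower difference than SRX, 4 of them called. Normalized groups of SRX did not overlap over the arrays above 0. That held for 19.7% of all tested probes, each over its own arrays above 0.

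The size of the SRX fall depended on how zeros and arrays were handled, and its direction did not. With 0.05 added before the logarithm, which keeps the zeros, the change was -0.99 (limma adjusted p = 0.0102). With arrays 3 to 6 alone, where the minimum was 3 values per genotype, it was -2.06 (limma adjusted p = 0.00154). Arrays 5 and 6 were the only couple with no zero in either genotype, and alone, 2 against 2, they gave -1.65 (limma adjusted p = 0.0384). In that fit 970 of 3166 probes passed, and its error rests only on gaps within a couple. With couples averaged, the change was -3.00 (limma adjusted p = 0.0460), and 2.01% of probes passed. Zeros were left out there, so arrays 1 and 2 of each genotype were represented by array 2 alone. Psao array 3 was also at 0, so its couple was represented by the remaining array alone. SRX passed in all 19 other settings that gave it a value, with adjusted p from 0.000512 to 0.0460. Some of these, such as leaving out an array where SRX was at 0, removed none of its values.

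PRXIIE is a peroxiredoxin that reduces hydrogen peroxide and organic peroxides in the plastid stroma. Its intensity in WT arrays 1 to 6 was 0.0536, 0.0972, 0.427, 0.240, 0.204 and 0.254. In psao arrays 1 to 6 it was 0.777, 0.746, 0.287, 0.316, 0.391 and 0.325. No array was at 0. Arrays 1 and 2 were the dimmest of WT and the brightest of psao, and WT array 3 lay above 4 of the 6 psao arrays, so the groups overlapped.

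The mean intensity of PRXIIE was 0.213 ± 0.132 (SD, n = 6) for WT and 0.474 ± 0.226 (SD, n = 6) for psao, a ratio of 2.23. Relative to the median probe of the same array it ranged from 0.539 to 2.37 times in WT and from 1.33 to 2.86 times in psao. Its rank within an array ran from percentile 36.3 to 72.0 in WT and from 60.6 to 80.7 in psao. In normalized log2 units the WT level was -2.22 ± 0.73 (SD, n = 6) and the psao level -1.33 ± 0.58 (SD, n = 6). The difference of 0.89 ± 0.36 (SE) did not pass (limma adjusted p = 0.0792), and its unadjusted 95% interval ran from 0.11 to 1.68.

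The difference of PRXIIE was carried by arrays 1 and 2. Psao minus WT, in normalized log2 units, was 2.39 for the couple of arrays 1 and 2, -0.11 for that of arrays 3 and 4, and 0.40 for that of arrays 5 and 6. With arrays 3 to 6 alone the difference was 0.13 (limma adjusted p = 0.655). Arrays 1 and 2 alone, 2 against 2 and normalized separately, gave 2.42 and passed (limma adjusted p = 0.0217). In that fit 977 of 2604 probes passed, and its error rests only on gaps within a couple. Without WT replicate 3, the highest WT value, the difference was 1.09 and passed (adjusted p = 0.0333), and over all 26 alternatives the adjusted p ranged from 0.0217 to 0.798. Whether the couples differ in this contrast was not tested.

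NTRC is the reductase that, with its own thioredoxin domain, reduces chloroplast peroxiredoxins at the expense of NADPH. Its intensity in WT arrays 1 to 6 was 0.134, 0.113, 0.247, 0.241, 0.161 and 0.186. In psao arrays 1 to 6 it was 0.402, 0.420, 0.211, 0.192, 0.270 and 0.239. No array was at 0, and psao arrays 3, 4 and 6 lay within the range of the WT arrays.

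The mean intensity of NTRC was 0.181 ± 0.0553 (SD, n = 6) for WT and 0.289 ± 0.0983 (SD, n = 6) for psao, a ratio of 1.60 beside the ratio of 1.52 between the array medians. Relative to the median probe of the array, NTRC stood at 1.17 ± 0.221 times (SD, n = 6) for WT and at 1.19 ± 0.256 times (SD, n = 6) for psao. Its rank stayed between percentiles 44.2 and 64.4 over all 12 arrays. In normalized log2 units it stood at -2.26 ± 0.26 (SD, n = 6) for WT and -2.10 ± 0.32 (SD, n = 6) for psao. The difference was 0.16 ± 0.19 (SE, limma adjusted p = 0.556), with a 95% interval from -0.26 to 0.58. The couples differed in sign, with 0.64, -0.38 and 0.21 in the same order. With arrays 3 to 6 alone the difference was -0.080. Arrays 1 and 2 alone, 2 against 2, gave 0.69 and passed (limma adjusted p = 0.0491, the lowest of 26 alternatives, the highest being 0.982). In that fit 977 of 2604 probes passed, and its error rests only on gaps within a couple.

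**Figure D2:**
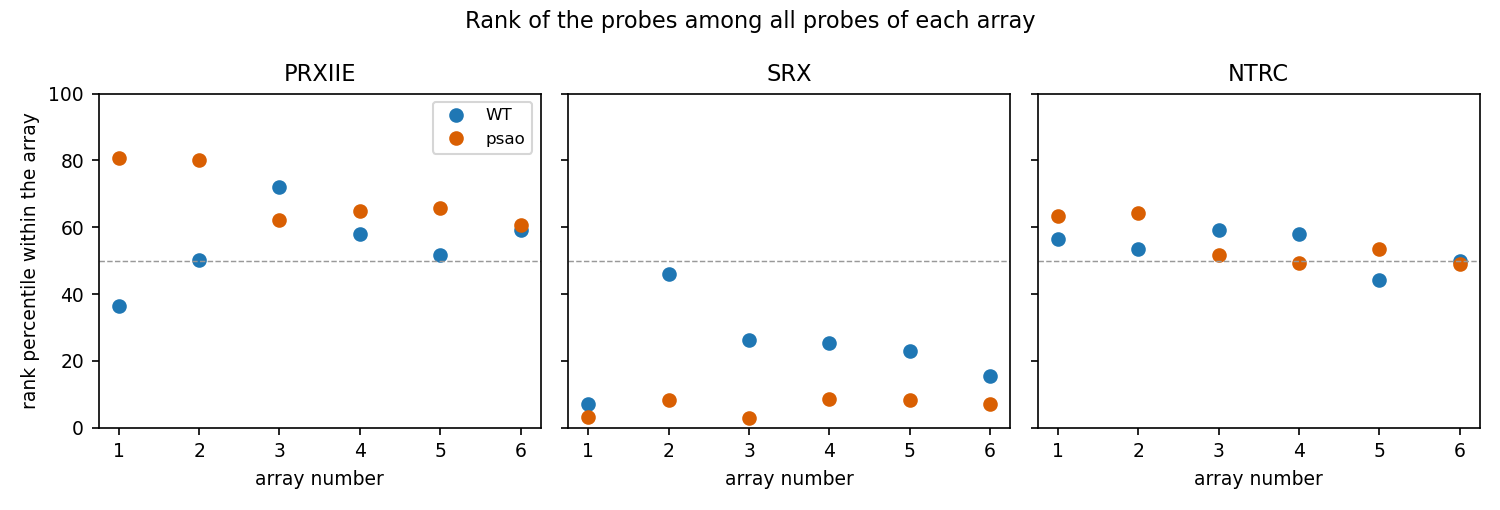
Rank percentile of PRXIIE, SRX and NTRC among all 3439 probes of each array (y axis, 50 is the median probe, dashed) against array number (x axis) for WT and psao. SRX of psao stays at or under percentile 8.74 on all arrays, PRXIIE differs most in arrays 1 and 2, and NTRC stays near the middle in both genotypes.

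The gap between the arrays of a couple varied among the genes. The median gap between the arrays of a couple was 0.31 log2 units for PRXIIE and 0.16 for NTRC over 6 couples, and 0.47 for SRX over the 3 couples with both values. The largest gap was 0.80 for PRXIIE, close to its genotype difference of 0.89, and 0.72 for SRX and 0.26 for NTRC. Couple means of WT spanned 1.39 log2 units for PRXIIE, 0.51 for NTRC and 1.27 for SRX. Couple means of psao spanned 1.12 for PRXIIE, 0.64 for NTRC and 1.66 for SRX. For all 3 genes these spans exceeded the median gap between arrays of a couple. A span over 3 means and a median gap are unlike measures, so this does not show that couples differ. For SRX, the means of couples without both values rest on 1 array.

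The ratio of probes on the same array does not depend on how arrays are scaled. Its level has no meaning, since probes differ in brightness, but its change between genotypes shows unequal change of the probe signals. With SRX this covers only arrays above 0, and its psao signal near 0 limits how far its ratios can be read. The log2 ratio of SRX to NTRC was -1.44 ± 0.65 (SD, n = 5) in WT, from -2.09 to -0.47, and -3.94 ± 0.95 (SD, n = 4) in psao, from -5.30 to -3.17. The groups did not overlap over the arrays with SRX above 0. Of all tested probes other than NTRC, SRX included, 13.7% did not overlap in their ratio to NTRC. Each probe was taken over its own arrays above 0, which can be more than those of SRX. The log2 ratio of PRXIIE to SRX was 1.71 ± 0.94 (SD, n = 5) for WT and 4.57 ± 1.11 (SD, n = 4) for psao, and again did not overlap. Counted in the same way, 10.3% of all tested probes other than PRXIIE, SRX included, did not overlap against PRXIIE.

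The log2 ratio of PRXIIE to NTRC was 0.0044 ± 0.74 (SD, n = 6) for WT and 0.65 ± 0.21 (SD, n = 6) for psao. In WT it ran from -1.32 in array 1 to 0.79 in array 3, while the psao arrays lay between 0.44 and 0.95. WT array 3 was the only WT array within that range, and WT arrays 1, 2 and 4 were below 0. WT array 6 lay barely under the range, at 0.4437 against the lowest psao value of 0.4448. These ratios were not tested.

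**Figure D3:**
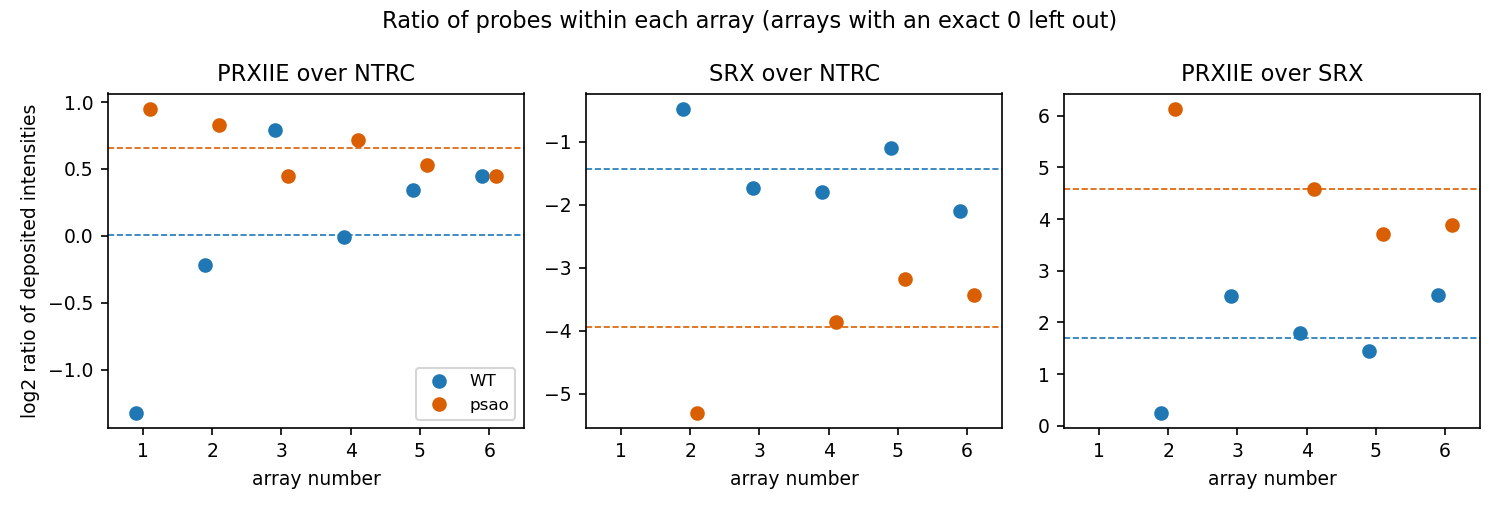
Log2 ratio of deposited intensities within each array (y axis) against array number (x axis) for PRXIIE over NTRC, SRX over NTRC and PRXIIE over SRX, with the mean of each genotype dashed and arrays with SRX at 0 left out of its ratios. Both ratios with SRX separate WT from psao, and PRXIIE over NTRC does not.

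Other genes of thiol redox control, peroxide removal and their targets were thinly covered, with 4 of 84 listed loci measured. No other peroxiredoxin (8 loci), no thioredoxin or glutaredoxin (21 loci), none of 36 loci for ascorbate and glutathione peroxidases, superoxide dismutases, catalases and related enzymes, and none of 4 loci for ferredoxin and ferredoxin-NADP reductase had a probe with 1 gene. Of the other thioredoxin reductases 1 of 5 was measured and fell, and of enzymes switched by plastid thioredoxins 3 of 10 were measured, of which 1 rose, 1 fell and 1 did not pass. With couples as a random block neither fall passed (limma adjusted p = 0.0586 for FTRB and 0.359 for SBPASE), and the rise of NADP-MDH did (adjusted p = 0.00982). Among all tested probes with 1 gene, 28% passed, and their median difference was 0.033 log2 units.

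FTRB (AT2G04700) is the catalytic subunit of ferredoxin-thioredoxin reductase, which feeds electrons from photosystem I to plastid thioredoxins, beside the NADPH route through NTRC. Its intensity over the WT arrays ran from 0.605 to 0.731, with a median of 0.685. Over the psao arrays it ran from 0.399 to 0.591, with a median of 0.532. All psao arrays were dimmer than all WT arrays, as in 4.13% of all probes by deposited intensity, a share that was 9.28% by rank within the array. In normalized log2 units FTRB changed from -0.49 ± 0.08 (SD, n = 6) to -1.11 ± 0.15 (SD, n = 6), a fall by 0.63 ± 0.14 (SE, limma adjusted p = 0.00536). Its differences in the couples were -0.73, -0.68 and -0.47, and with arrays 3 to 6 alone it changed by -0.58 (limma adjusted p = 0.00905). Of 26 alternatives 22 called FTRB, and it did not pass with couples averaged (limma adjusted p = 0.208, the highest of a range from 0.00138), with couples as a random block (adjusted p = 0.0586), as deposited (adjusted p = 0.0663) or with arrays 5 and 6 alone (adjusted p = 0.0752). As deposited, the change of FTRB was -0.42, where the median of all tested probes was shifted by 0.43 toward psao.

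NADP-MDH (AT5G58330), the malate dehydrogenase through which chloroplasts export reducing power, had intensities from 0.687 to 1.34 in WT, with a mean of 1.04 ± 0.286 (SD, n = 6). In psao they ran from 2.27 to 3.01, with a mean of 2.69 ± 0.310 (SD, n = 6). All psao arrays were brighter than all WT arrays, as in 15.2% of all probes by deposited intensity, a share that was 8.78% by rank within the array. In normalized log2 units NADP-MDH rose by 1.26 ± 0.19 (SE), from a WT level of 0.12 ± 0.32 (SD, n = 6) to a psao level of 1.38 ± 0.24 (SD, n = 6), and its adjusted p in limma was 0.000596. Its differences in the couples were 1.85, 0.71 and 1.22, and with arrays 3 to 6 alone it rose by 0.97 (limma adjusted p = 0.00288). Of 26 alternatives 25 called it, couples averaged being the exception (limma adjusted p = 0.0936).

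Of the Calvin cycle enzymes that thioredoxins activate, SBPASE fell by 0.66 ± 0.22 log2 units (SE, limma adjusted p = 0.0384), with differences of -0.66, -0.44 and -0.86 in the couples. Of 26 alternatives 13 called it, the adjusted p running from 0.00538 to 0.379. It did not pass with couples as a random block (limma adjusted p = 0.359), with couples averaged (0.208) or with array number as block (0.0513). Nor did it pass as deposited (0.143), with arrays 1 and 2 (0.379) or 3 and 4 (0.130) alone, or in several runs leaving out 1 array (up to 0.0719). With arrays 3 to 6 alone SBPASE changed by -0.63 (adjusted p = 0.0163). PRK differed by -0.48 ± 0.23 (SE, adjusted p = 0.135), with -0.99, -0.43 and -0.0046 in the couples. With arrays 3 to 6 alone PRK differed by -0.21 (limma adjusted p = 0.253).

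**Figure D4:**
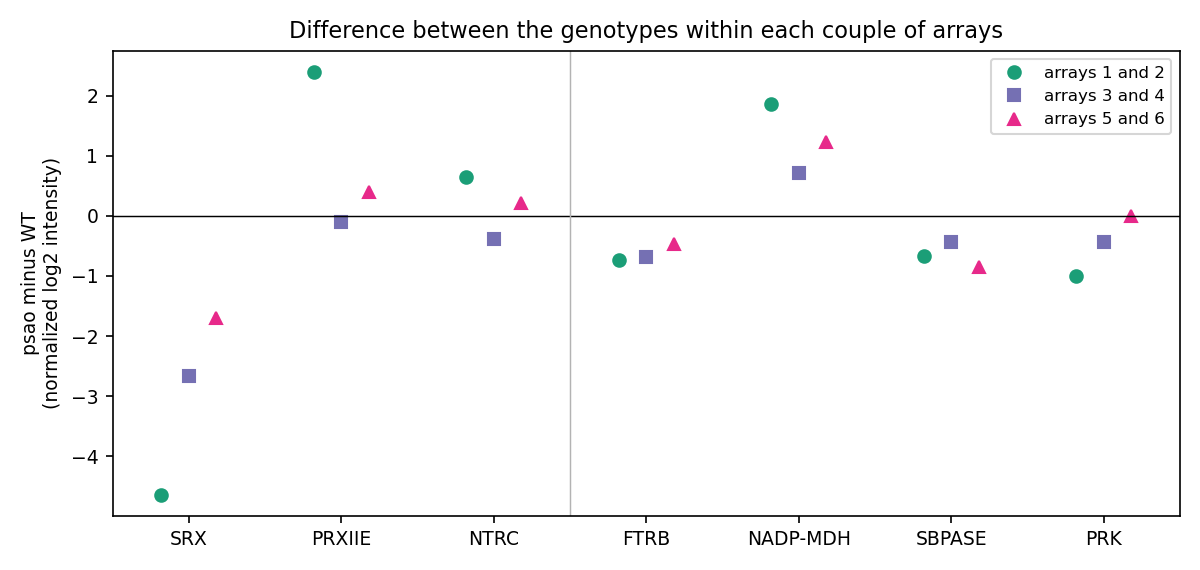
Psao minus WT in normalized log2 intensity (y axis) within arrays 1 and 2, 3 and 4, and 5 and 6, for SRX, PRXIIE and NTRC and, right of the grey line, for 4 other measured genes of the pathway (x axis). SRX, FTRB, SBPASE and PRK lie below 0 in all couples, PRK at -0.0046 in arrays 5 and 6, and NADP-MDH lies above 0, while PRXIIE and NTRC change sign between couples. Zeros are left out, so SRX in arrays 1 and 2 compares array 2 alone of each genotype. In arrays 3 and 4 its psao side is array 4 alone. In deposited intensities with 0.05 added before the logarithm, which keeps the zeros, SRX differed by -0.56, -1.12 and -0.51 in the same order.

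Profiles over the arrays were compared with those of other probes with 1 gene, as the mean absolute difference of normalized log2 values after each probe's own mean was subtracted. Nearest to SRX, over its 9 arrays above 0, were AT1G62780 at a distance of 0.33, AT4G31210 at 0.65 and AT1G09200 at 0.67, where the median of 527 probes was 1.35. Nearest to PRXIIE, over 12 arrays, were AT4G21770 at 0.29, AT5G35100 at 0.31 and AT1G76220 at 0.32, where the median of 480 probes was 0.75. Nearest to NTRC were AT3G16310 at 0.18, AT4G38040 at 0.19 and AT4G13680 at 0.20, with a median of 0.58. With median centring in place of quantile normalization, 1 of these 3 remained among the nearest 3 for SRX, 2 for PRXIIE and 2 for NTRC. The values share arrays and couples, and the distances are a description.

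**Figure D5:**
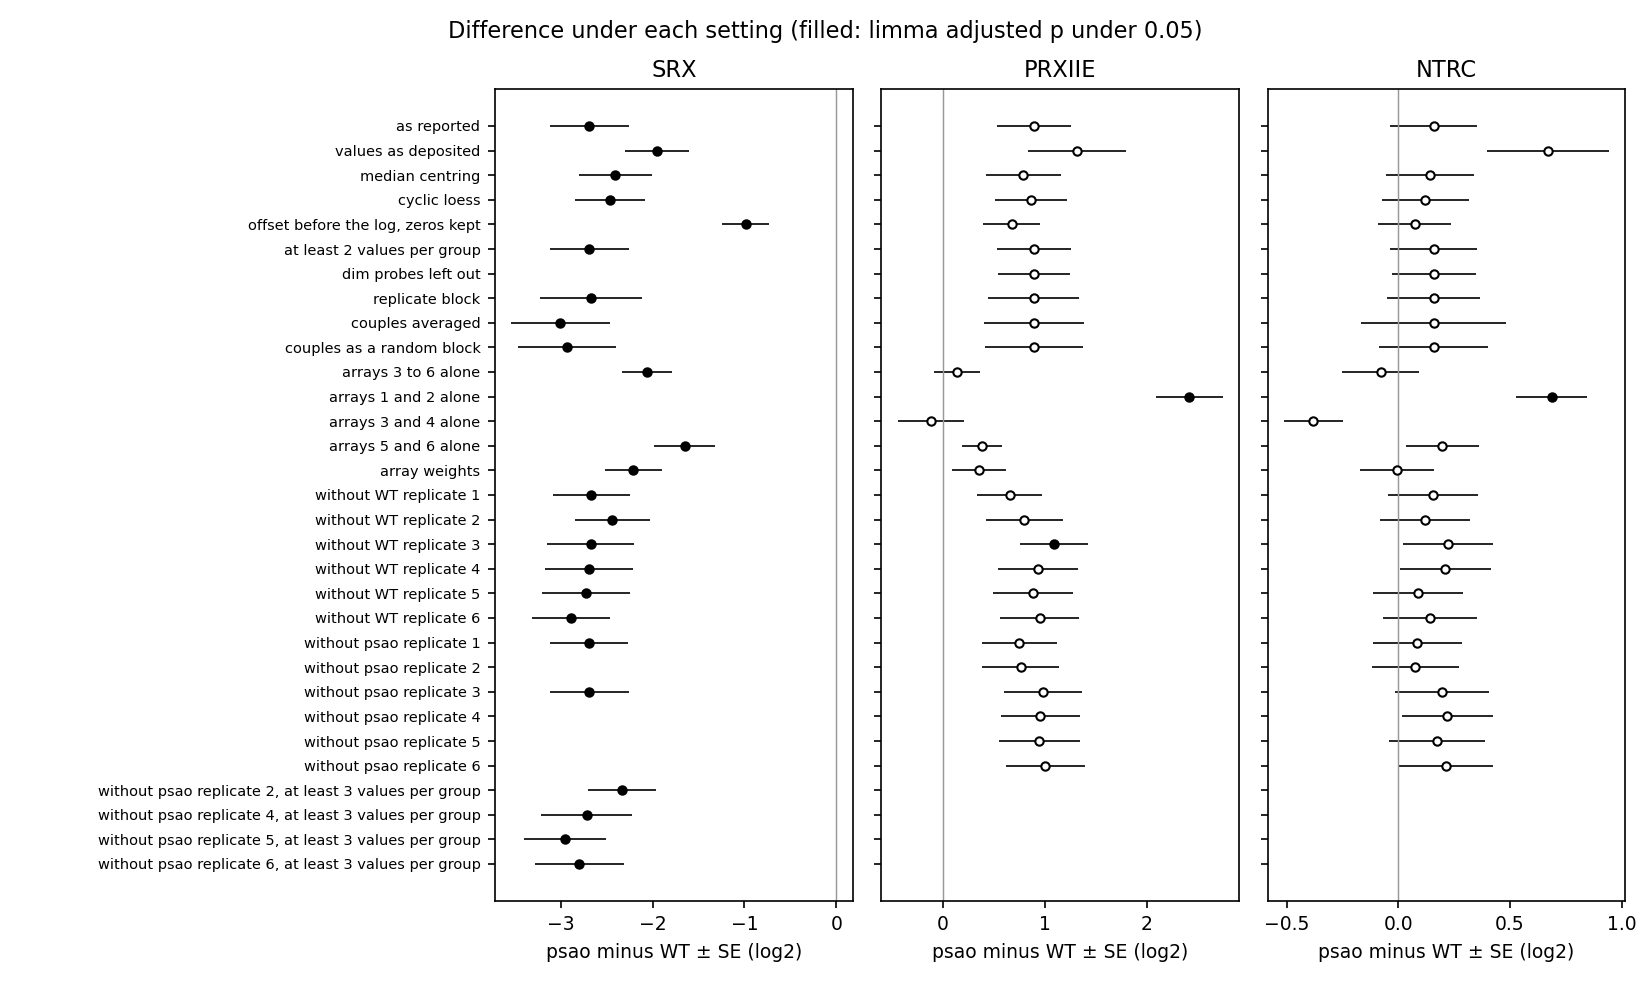
Difference psao minus WT ± SE in log2 units (x axis, with its own range in each panel) of SRX, PRXIIE and NTRC under each processing setting (y axis), with filled points where the limma adjusted p was under 0.05 and no point where a setting gave no value. SRX lies below 0 and is filled at all of its points, PRXIIE is filled at 2 points, and NTRC is filled at 1 point and crosses 0.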

How the data were processed

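Total RNA of 6 WT and 6 psao arrays was analysed, grouped by sample titles. The deposited table holds 1 intensity per probe and array, linear and never negative, with a maximum of 100 in every array. The authors' steps before that (labelling, background, averaging of spots) are not given in the sources used here. Precision is limited by how many arrays there are. Genes were named through the platform annotation: 1562 probes were listed, 692 with 1 gene and 870 with several, and 690 of the 692 matched RefSeq (TAIR10.1).

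Zeros were treated as missing before taking log2. Array log2 medians spanned 1.15, over the limit of 0.1, so arrays were quantile normalized, and probes needed 4 values in each group. Genotypes were tested through lmFit and eBayes (limma 3.58.1 in R 4.3.3, with statmod 1.5.0 for the random block), two-sided. The fit was tested on simulated data. Rank percentiles, ratios within arrays and zeros come from deposited values.

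The members, gene lists, named-gene rule (all members, all measured list loci, and the 3 probes with the nearest profile) and couples were chosen with earlier results of these data known. Deviations of same-numbered WT and psao arrays from their group means correlated across probes with r from 0.144 to 0.239, all over 0.1. Arrays of unlike number were not compared, so r cannot show that the numbers pair arrays. The differences and calls come from the fit without array number as a block, and the fit with it stands as an alternative.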

Additional observations from a re-analysis of the deposited data

How the results depend on the processing

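SRX kept its direction and stayed past the threshold in all 19 other settings that gave a value. Leaving out 1 array in turn gave -2.89 to -2.44 where SRX kept enough values. Leaving out WT array 1 or psao array 1 or 3 removed no SRX value, as SRX was at 0 there. Lowering the minimum to 2 values per group changed no SRX value either (-2.69). These settings therefore say little on how SRX depends on single arrays. Leaving out psao replicates 2, 4, 5 or 6 left too few values above 0 for the minimum of 4. With a minimum of 3, added after seeing the data, these gave -2.33, -2.72, -2.95 and -2.80, all past the threshold. The filter on dim probes (mean under 0.1) and arrays 1 and 2 or 3 and 4 alone left SRX out. The change was -1.95 as deposited, where the median of all probes shifted by 0.43, and -2.41 under median centring.

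PRXIIE passed only with arrays 1 and 2 alone (2.42, where 977 of 2604 probes passed) and without WT replicate 3. Its sign turned with arrays 3 and 4 alone (-0.12), and leaving out 1 array gave 0.65 to 1.09. The sign of NTRC turned with arrays 3 to 6 alone (-0.080), arrays 3 and 4 alone (-0.38) and array weights (-0.0064). NTRC passed with arrays 1 and 2 alone (0.69), and leaving out 1 array gave 0.075 to 0.22. As deposited, PRXIIE differed by 1.32 and NTRC by 0.67, neither past the threshold. The causes were not tested.

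With the array number as a replicate block, the difference was 0.89 for PRXIIE (limma adjusted p = 0.157), -2.67 for SRX (adjusted p = 0.0197) and 0.16 for NTRC (adjusted p = 0.575), so that of all genes named with a test SBPASE alone changed its call. Probes called numbered 949, 1090 with that block and 1228 with arrays 3 to 6 alone. They numbered 330 with couples as a random block and 60 with couples averaged, where fewer values enter. Higher calls made up 763 of 986 as deposited and 472 of 949 after quantile normalization. Leaving out 1 array gave 786 to 939 calls. Signals near 0, as for SRX in psao, limit how far its fold can be read.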
